A study of Mus musculus with 9 samples.

Results

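The 52 genes described here code for proteins that repair DNA or signal its damage. They were listed by gene symbol, from homologous recombination to the damage kinases, and all 52 symbols were found among the 23366 named rows of a gene count table. The table comes from RNA sequencing of mouse embryonic stem cells, the cultured counterpart of the early embryo's pluripotent cells. Sirt6-KO cells, labelled as a knockout of the gene for the chromatin deacylase SIRT6, were compared with wild-type (WT) cells. Each group had 3 libraries. A further group of 3 glucose-deprived wild-type samples was not analysed here.

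All cells carried the strain label 129 SvJae F1 and were labelled passage 21. Both groups were grown in DMEM with 10% fetal bovine serum and leukaemia inhibitory factor, with no treatment to damage DNA named in the labels. The labels do not say how Sirt6 was disrupted, whether the knockout is 1 clone, or whether replicates were separate cultures. P-values therefore measure only the spread between these libraries, which may be technical.

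A double-strand break can be rejoined directly by end joining or copied from the sister chromatid by homologous recombination. Damage to single bases is cut out by base excision repair, bulky adducts by nucleotide excision repair, and replication errors by mismatch repair, while the kinases ATM and ATR signal breaks and stalled forks to the cell cycle. Embryonic stem cells divide fast and rely heavily on homologous recombination. SIRT6 is known to be recruited to breaks early, where it acts on PARP1 and on chromatin around the break.

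Total counts were between 20107037 and 29267115 in the Sirt6-KO libraries and between 25044061 and 27785052 in the WT libraries. Sirt6 had 12, 6 and 6 counts in Sirt6-KO libraries 1 to 3, against 348, 341 and 342 counts in WT libraries 1 to 3, which is 42.2-fold lower (log2 fold change -5.40 ± 0.189 SE, edgeR adjusted p = 3.2e-08). Of 14988 genes tested, 55.7% were called at an adjusted p under 0.05, 27.9% higher and 27.8% lower in Sirt6-KO. The 3 Sirt6-KO values did not overlap the 3 WT values for 63.2% of genes tested. Log2 CPM (counts scaled to library size and composition) correlated across genes at 0.985 to 0.993 among Sirt6-KO libraries and at 0.994 to 0.995 among WT libraries. The median coefficient of variation of the 52 repair genes was 11.8% among the Sirt6-KO libraries and 4.12% among the WT libraries, and it was larger in Sirt6-KO for 46 of the 52.

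The embryonic stem cell label was checked against 10 marker genes, all of which were detected in every library. Their summed level was 6410 to 8052 CPM in Sirt6-KO and 5986 to 6603 CPM in WT. Of the markers, 3 were called higher (Sox2, Dppa5a and Tdgf1) and 4 lower (Pou5f1, Nanog, Klf4 and Utf1). The sum follows its most abundant genes: Dppa5a averaged 2054 CPM in Sirt6-KO and 1212 CPM in WT, and Pou5f1 1199 and 1651 CPM. Markers of fibroblasts, which are often used as feeder cells, summed to 39.83 to 45.01 CPM in Sirt6-KO and 13.83 to 14.31 CPM in WT over 12 genes. Of the 7 fibroblast markers tested, 6 rose and 0 fell in Sirt6-KO (85.7% called, beside 55.7% of all genes). Acta2, Col1a2 and Col5a2 had at most 3 counts in any WT library. They passed the filter on low counts only through the Sirt6-KO libraries, so the split of 6 and 0 partly follows from the filter. Between 1 and 4 of the 12 markers were at 0 in each library, and Lum was at 0 in all 6. The collagen gene Col1a1 had 78, 41 and 44 counts in Sirt6-KO, against 16, 17 and 10 counts in WT. Tagln, the most abundant marker in Sirt6-KO, averaged 21.7 CPM there and 2.21 CPM in WT. Fbn1, the most abundant in WT, averaged 8.45 CPM in Sirt6-KO and 9.46 CPM in WT and was not called. Col3a1, S100a4, Postn, Dcn and Lum were too low to be tested. The part of such cells in the changes of the repair genes was not tested. In bulk RNA, fewer cells of a type and less RNA per cell cannot be told apart.

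All 52 repair genes passed the filter on low counts, and the lowest count of any of them in any library was 134. Of the 52, 26 passed the test, 12 higher and 14 lower in Sirt6-KO, beside 55.7% of all genes. A share near that of all genes is not a result about repair genes as a group. The 30 genes whose groups did not overlap (57.7%) likewise stand beside 63.2% of all genes. The median log2 fold change of the 52 was 0.01, as it was for all genes tested.

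Most of the changes were small. The median size of their log2 fold change was 0.264, beside 0.441 over all genes tested and 0.348 over the 10456 genes averaging 5 CPM or more. Bard1 alone among the 52 (1.92%) differed by 2-fold or more, with Lig4 just short of it, beside 21.8% of all genes and 12.7% of those averaging 5 CPM or more. Among the 26 called genes, 17 differed by less than 1.5-fold. Genes were called in both directions in 4 of the 7 role groups, namely homologous recombination, end joining, base excision and mismatch repair, and the opposite calls included genes whose proteins form 1 complex.

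**Figure D1:**
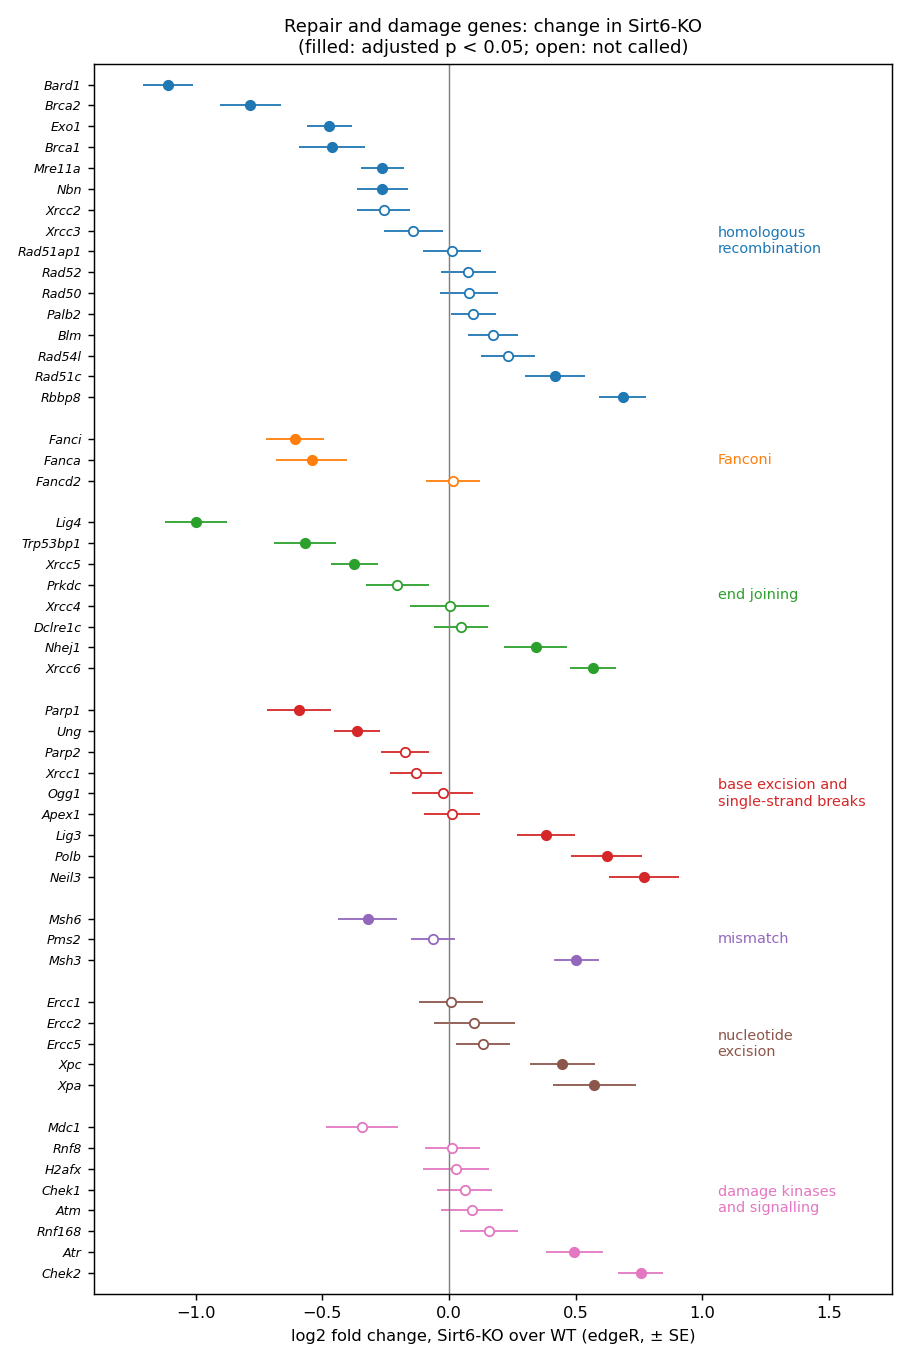
Log2 fold change, Sirt6-KO over WT, of the 52 repair and damage genes grouped by role, with bars for the standard error. Filled points passed the test. Bard1 and Lig4 lie farthest to the left, at -1.11 and -1.0, and Neil3 and Chek2 farthest to the right, at 0.77 and 0.76.

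Promoters of 42 of the 52 were found in a RefSeq table (build GRCm38.p6) that holds 250 bases before and 50 after each gene's start. Cell-cycle genes often carry E2F sites, and the letters TTTCGCGC, TTTGGCGC, TTTCCCGC and TTTGGCGG were searched on both strands. They were found in 10 of the 42 (23.8%), beside 2.42% of the 27025 promoters in the table, 4.39% of those of tested genes and 7.46% of 67 promoters of other repair genes. Of the 10, 4 rose (Rad51c, Msh3, Xrcc6 and Chek2), 3 fell (Bard1, Brca2 and Msh6) and 3 were not called (Mdc1, Chek1 and Rnf168). Carriers of these letters thus changed in both directions, as did the 42 genes together (9 higher, 12 lower and 21 not called).

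The matches of the 2 largest falls and the 2 largest rises among these 10 genes are shown, each with 10 bases on either side, as an example of like letters in genes that moved oppositely. The match is in capitals, and each sequence is read 5′ to 3′ on the gene's own strand. Bard1 lies at chr1:71103164-71103191 (minus strand), Brca2 at chr5:150522443-150522470 (plus), Chek2 at chr5:110839821-110839848 (plus) and Xrcc6 at chr15:82016313-82016340 (plus).
Bard1: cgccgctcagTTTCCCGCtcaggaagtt
Brca2: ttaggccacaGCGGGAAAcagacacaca
Chek2: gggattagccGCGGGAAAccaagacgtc
Xrcc6: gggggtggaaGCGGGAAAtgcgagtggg
All 4 hold TTTCCCGC, in Bard1 on the gene's strand and in the others on the opposite strand. The first base of the match lies at -209 in Bard1, -168 in Brca2, -152 in Chek2 and -46 in Xrcc6, counted from the start used by the table, and bases beside it may be transcribed from other start sites.

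The NRF1-type letters GCGCATGC were found in 6 of the 42 (14.3%, beside 5.33% of promoters of tested genes), namely Lig4, Fanci, Xrcc5, Xpa, Atm and Parp2. Of these, 3 fell, 1 rose and 2 were not called. The NF-Y-type letters CCAAT were found in 23 (54.8%, beside 38.6%), of which 3 rose, 5 fell and 15 were not called. These counts stand beside 9 higher, 12 lower and 21 not called over the 42 genes. A match is a run of letters in this window and shows no binding.

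Homologous recombination held the gene with the largest fall, Bard1. Of its 16 genes, 6 fell and 2 rose, with a median log2 fold change of -0.07 and no overlap between the groups for 11. Bard1 codes for the RING partner that stabilises BRCA1 as a ubiquitin ligase. It had 45.1, 44.5 and 38.0 CPM in Sirt6-KO, against 93.0, 92.6 and 90.1 CPM in WT. Every Sirt6-KO library held less than any WT library by a wide gap, and Bard1 was 2.16-fold lower (log2 fold change -1.11 ± 0.10 SE, edgeR adjusted p = 5.65e-06).

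Brca2, which acts on resected DNA to start strand exchange, had 158, 149 and 119 CPM in Sirt6-KO, against 262, 243 and 227 CPM in WT. The groups did not overlap, although the Sirt6-KO libraries were more widely spread than for Bard1. Brca2 was 1.72-fold lower (log2 fold change -0.78 ± 0.12 SE, edgeR adjusted p = 0.000258). Exo1 codes for an exonuclease that extends resection of the broken end, and it had 107, 101 and 98.7 CPM in Sirt6-KO, against 140.0, 142 and 145 CPM in WT. It was 1.39-fold lower, with no overlap (log2 fold change -0.47 ± 0.09 SE, edgeR adjusted p = 0.000958).

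Rbbp8 codes for CtIP, which starts resection together with the MRE11 nuclease. Unlike Exo1, it was higher in every Sirt6-KO library, at 42.9, 47.7 and 45.2 CPM, against 28.0, 29.2 and 27.2 CPM in WT. That is 1.61-fold higher (log2 fold change 0.69 ± 0.09 SE, edgeR adjusted p = 0.000115). Rbbp8 and Exo1 were thus called in opposite directions.

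Smaller changes were found in 4 more recombination genes. Brca1 fell by 0.46 on the log2 scale (SE 0.13, edgeR adjusted p = 0.0104), and the strand-exchange accessory gene Rad51c rose by 0.42 (SE 0.12, edgeR adjusted p = 0.0111). Mre11a and Nbn, for the nuclease and the adaptor of the MRN complex, fell by 0.26 each (edgeR adjusted p = 0.0216 for Mre11a and 0.0435 for Nbn). The call for Brca1 was lost without WT replicate 1 (adjusted p = 0.0520), that for Rad51c without WT replicate 2 (adjusted p = 0.0695). Those for Mre11a and Nbn were lost without any 1 of WT replicates 1, 2 and 3 or Sirt6-KO replicate 2, and for Nbn also without Sirt6-KO replicate 1, with adjusted p of 0.0548 to 0.173. With total counts as the scaling, Brca1, Mre11a and Nbn were not called (edgeR adjusted p = 0.0774, 0.253 and 0.284) and Rad54l was called higher (0.0284), which left 3 falls and 3 rises in this role.

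The other 8 recombination genes did not pass the test. The bridging factor Palb2, which links BRCA1 to BRCA2, had a log2 fold change of 0.10, and Rad50, the third MRN subunit, had 0.08. Values were 0.01 for Rad51ap1, 0.08 for Rad52, 0.17 for the helicase gene Blm and 0.23 for the motor protein gene Rad54l (edgeR adjusted p = 0.0823). The accessory genes Xrcc2 and Xrcc3 had -0.26 (edgeR adjusted p = 0.0563) and -0.14. Palb2, Rad54l and Xrcc2 had groups that did not overlap all the same.

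The Fanconi anaemia pathway unhooks crosslinks between DNA strands, and 3 of its genes were listed. Fanci, which forms part of the pathway's monoubiquitinated clamp, had 66.4, 58.8 and 49.9 CPM in Sirt6-KO, against 93.0, 89.3 and 84.8 CPM in WT. Fanca, a subunit of the core ligase complex, had 54.3, 39.8 and 37.4 CPM in Sirt6-KO, against 67.8, 66.0 and 58.2 CPM in WT. Both fell without overlap, Fanci by 0.61 on the log2 scale (SE 0.12, edgeR adjusted p = 0.001) and Fanca by 0.54 (SE 0.14, edgeR adjusted p = 0.007). Fancd2, which pairs with FANCI in the clamp, had 132, 116 and 105 CPM in Sirt6-KO, against 123, 115 and 112 CPM in WT. Its groups overlapped, with a log2 fold change of 0.02 ± 0.11 SE (edgeR adjusted p = 0.91).

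End joining held the gene with the second largest fall, Lig4. Of 8 genes, 3 fell and 2 rose (62.5%, beside 55.7% of all genes), with a median log2 fold change of -0.10. Lig4 codes for the ligase that seals the break. It had 7.30, 7.37 and 6.71 CPM in Sirt6-KO, against 14.3, 15.9 and 12.7 CPM in WT, and was 2.0-fold lower (log2 fold change -1.0 ± 0.12 SE, edgeR adjusted p = 5.37e-05). Its levels were among the lowest of the 52, yet no Sirt6-KO library came near the WT range. Trp53bp1 codes for 53BP1, which shields broken ends from resection and so favours joining. It had 79.1, 66.0 and 56.3 CPM in Sirt6-KO, against 99.9, 101 and 98.9 CPM in WT. The 3 WT libraries were nearly level and all above the scattered Sirt6-KO ones, with a log2 fold change of -0.57 ± 0.12 SE (edgeR adjusted p = 0.00222).

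The genes of the Ku ring, which grips broken ends within seconds, moved in opposite directions. Xrcc6, for Ku70, carries the same E2F-type letters as Bard1 and Brca2. It had 131, 137 and 149 CPM in Sirt6-KO, against 93.8, 92.1 and 95.8 CPM in WT. Xrcc5, for Ku80, had 235, 249 and 254 CPM in Sirt6-KO, against 315, 311 and 330.1 CPM in WT. Neither gene's groups overlapped: Xrcc6 was 1.48-fold higher (log2 fold change 0.57 ± 0.09 SE, edgeR adjusted p = 0.00037) and Xrcc5 was 1.3-fold lower (-0.37 ± 0.09 SE, edgeR adjusted p = 0.00553). With total counts as the scaling, the call for Xrcc5 was lost (edgeR adjusted p = 0.0514).

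The accessory factor gene Nhej1 (XLF) rose by 0.34 on the log2 scale (edgeR adjusted p = 0.0348). That call was lost without any 1 of WT replicates 1, 2 and 3 or Sirt6-KO replicate 3, with adjusted p of 0.0699 to 0.114. Not called were Prkdc, the catalytic subunit of DNA-PK, at -0.20 (edgeR adjusted p = 0.185), Xrcc4, the scaffold of LIG4, at 0.00, and Dclre1c, the end-trimming nuclease Artemis, at 0.05.

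Base excision and single-strand break repair had 9 listed genes, of which 3 rose and 2 fell (55.6%, beside 55.7% of all genes). Their median log2 fold change was -0.02. Neil3 codes for a glycosylase active in dividing cells, and it had 10.9, 9.13 and 11.6 CPM in Sirt6-KO, against 5.55, 6.23 and 6.72 CPM in WT. This was the largest rise among the 52, at 1.71-fold with no overlap (log2 fold change 0.77 ± 0.14 SE, edgeR adjusted p = 0.000671). Polb, the polymerase that fills the single-base gap, had 29.6, 40.9 and 44.2 CPM in Sirt6-KO, against 25.0, 24.0 and 25.3 CPM in WT. Sirt6-KO replicate 1 lay much nearer to WT than the other Sirt6-KO libraries did, and Polb was 1.54-fold higher (log2 fold change 0.62 ± 0.14 SE, edgeR adjusted p = 0.00319).

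Parp1 codes for the poly(ADP-ribose) polymerase that senses strand breaks and is a known SIRT6 substrate. Its level was 721, 575 and 533 CPM in Sirt6-KO, against 919.6, 896 and 942 CPM in WT. All Sirt6-KO libraries lay below WT by an uneven margin, and Parp1 was 1.51-fold lower (log2 fold change -0.59 ± 0.13 SE, edgeR adjusted p = 0.00244). Lig3, the ligase of single-strand break repair, had 156, 129.9 and 117 CPM in Sirt6-KO, against 107, 104 and 98.4 CPM in WT. It was 1.3-fold higher without overlap (log2 fold change 0.38 ± 0.12 SE, edgeR adjusted p = 0.0153), a call lost without WT replicate 2 (adjusted p = 0.0588) or WT replicate 3 (adjusted p = 0.0723).

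Ung, which removes uracil, fell by 0.36 on the log2 scale (edgeR adjusted p = 0.0058), a call lost with total counts as the scaling (adjusted p = 0.0781). Log2 fold changes of the uncalled genes were -0.17 for Parp2, which shares part of PARP1's work, and -0.13 for Xrcc1, the scaffold that holds LIG3. They were -0.02 for the 8-oxoguanine glycosylase gene Ogg1 and 0.01 for the abasic-site nuclease gene Apex1.

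The 2 mismatch sensors listed differ in what they recognise. Msh3 belongs to the MutSβ dimer, which binds larger loops, and had 82.9, 83.2 and 77.9 CPM in Sirt6-KO, against 56.8, 58.3 and 57.1 CPM in WT. Msh6 belongs to the MutSα dimer, which binds single mismatches, and had 812, 712 and 643 CPM in Sirt6-KO, against 924, 890.5 and 893 CPM in WT. Msh3 rose 1.42-fold (log2 fold change 0.50 ± 0.09 SE, edgeR adjusted p = 0.000613), and Msh6 fell 1.25-fold (-0.32 ± 0.12 SE, edgeR adjusted p = 0.0358), both without overlap. The Msh6 call was lost without any 1 of WT replicates 1, 2 and 3 or Sirt6-KO replicate 2, with adjusted p of 0.0858 to 0.135, and with total counts as the scaling (adjusted p = 0.228). Pms2, which carries the nicking activity of the downstream complex, was not called, with a log2 fold change of -0.06 (edgeR adjusted p = 0.566).

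In nucleotide excision repair, 2 of 5 genes rose and 0 fell (40.0% called, beside 55.7% of all genes). Both that rose act at the recognition of damage. Xpa, which verifies the lesion, had 8.0, 9.99 and 12.0 CPM in Sirt6-KO, against 6.15, 6.32 and 7.53 CPM in WT. Xpc, which finds the distorted helix, had 47.9, 38.4 and 33.9 CPM in Sirt6-KO, against 28.4, 29.5 and 30.4 CPM in WT. For both genes the lowest Sirt6-KO library lay just above the highest WT library. Log2 fold changes were 0.57 ± 0.16 SE for Xpa (edgeR adjusted p = 0.0117) and 0.45 ± 0.13 SE for Xpc (edgeR adjusted p = 0.0114). The nuclease genes Ercc1 and Ercc5 and the helicase gene Ercc2 were not called, with log2 fold changes of 0.01, 0.13 and 0.10.

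Among 8 genes for damage kinases and signalling, 2 rose and 0 fell (25.0% called, beside 55.7% of all genes). Chek2, the effector kinase that ATM activates, had 92.0, 90.6 and 91.9 CPM in Sirt6-KO, against 52.1, 53.0 and 57.4 CPM in WT. Its promoter holds the E2F-type letters too. The Sirt6-KO libraries were nearly level, far above WT, and Chek2 was 1.69-fold higher (log2 fold change 0.76 ± 0.09 SE, edgeR adjusted p = 4.15e-05). Atr, the kinase of stalled replication forks, had 179, 172 and 139 CPM in Sirt6-KO, against 119.6, 119 and 109.8 CPM in WT. It was 1.41-fold higher without overlap (log2 fold change 0.49 ± 0.11 SE, edgeR adjusted p = 0.0033).

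H2afx, the histone variant that these kinases phosphorylate at breaks, had 303, 339 and 427 CPM in Sirt6-KO, against 330.1, 357 and 361 CPM in WT. The Sirt6-KO values lay on both sides of the WT range, and its log2 fold change was 0.03 ± 0.13 SE (edgeR adjusted p = 0.873). Also not called were Atm at 0.09, Chek1, the effector of ATR, at 0.06, and the ubiquitin ligases Rnf8 at 0.01 and Rnf168 at 0.16. The scaffold gene Mdc1 had -0.35 (edgeR adjusted p = 0.0596) and was called lower in 5 of 13 alternatives. Among the kinase genes listed, Chek2 and Atr thus rose, while Atm and Chek1 did not pass the test.

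**Figure D2:**
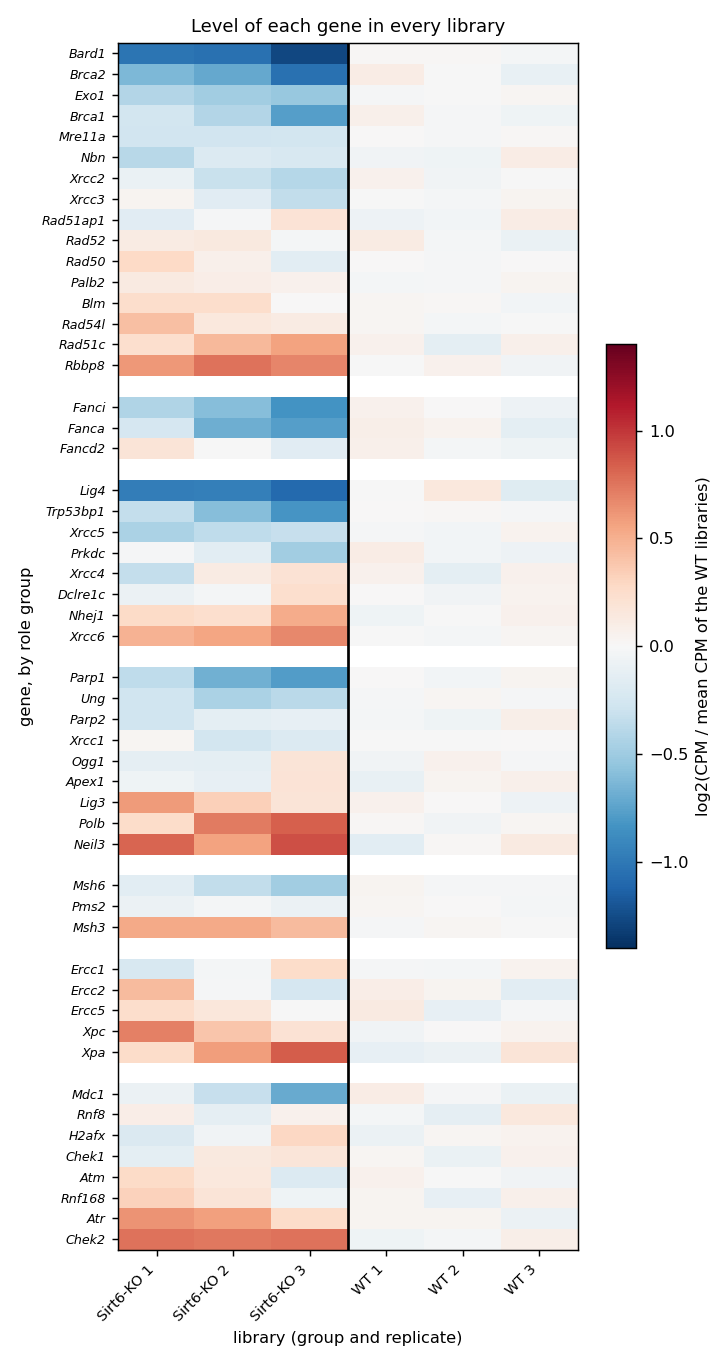
Level of each of the 52 genes in the 6 libraries, as log2 of its CPM over the mean CPM of the WT libraries, with rows by role group and colour from blue (lower) to red (higher). The 3 WT columns are pale throughout, whereas the Sirt6-KO columns differ among themselves, as for Polb (29.6, 40.9 and 44.2 CPM) and Parp1 (721, 575 and 533 CPM).

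Genes whose proteins share a complex, or act in parallel roles as MSH3 and MSH6 or ATR and ATM do, were next set against each other within each library, as counts per kilobase of the longest annotated transcript. A ratio within a library does not depend on library scaling, but it shows unequal change and not which gene changed. In the 15 pairs examined the Sirt6-KO ratios did not overlap the WT ratios, but single genes did not overlap for 63.2% of all genes tested, and no share over other gene pairs was computed. The pairs were drawn up with the genes' values in view, and with 3 libraries against 3 an exact permutation test could not reach the 0.05 threshold, so no test is given. The number 15 of 15 is therefore a description.

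The Ku70 to Ku80 ratio (Xrcc6 over Xrcc5) was 0.433, 0.427 and 0.455 in Sirt6-KO, against 0.231, 0.229 and 0.225 in WT, which is 1.92-fold higher. Per kilobase, the Ku80 gene gave the larger count in every library, and the gap was narrower in Sirt6-KO. The Msh3 to Msh6 ratio was 0.102, 0.117 and 0.121 in Sirt6-KO, against 0.0614, 0.0655 and 0.0639 in WT, a ratio 1.78-fold higher.

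Bard1 fell more than Brca1 did. Their ratio was 0.36, 0.394 and 0.436 in Sirt6-KO, against 0.59, 0.627 and 0.629 in WT, 1.56-fold lower. The Palb2 to Brca2 ratio was 1.85-fold higher, at 0.809, 0.842 and 1.03 in Sirt6-KO, against 0.439, 0.475 and 0.531 in WT. Lig4 over its scaffold Xrcc4 was 0.77, 0.57 and 0.488 in Sirt6-KO, against 1.15, 1.46 and 1.02 in WT, the widest shift of the 15 at 2.0-fold lower, with wide scatter in both groups.

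The clamp genes Fanci and Fancd2 stood at 0.596, 0.599 and 0.565 in Sirt6-KO, against 0.898, 0.924 and 0.896 in WT. Fancd2 gave the larger count per kilobase in every library, by a wider margin in Sirt6-KO. Chek2 over Chek1 was 2.21, 1.80 and 1.79 in Sirt6-KO, against 1.12, 1.23 and 1.20 in WT. Atr over Atm was 1.17, 1.22 and 1.24 in Sirt6-KO, against 0.902, 0.938 and 0.895 in WT, so that the gene with more counts per kilobase was Atr in every Sirt6-KO library and Atm in every WT library.

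Within the MRN complex, Mre11a over Rad50 was 0.745, 0.854 and 1.01 in Sirt6-KO, against 1.08, 1.08 and 1.09 in WT. The Sirt6-KO libraries differed among themselves by more than the gap to WT. The same was true of Parp1 over Parp2, at 5.67, 4.09 and 3.75 in Sirt6-KO, against 6.06, 6.07 and 5.76 in WT. Lig3 over its scaffold Xrcc1 was higher and tighter, at 1.10, 1.12 and 0.964 in Sirt6-KO, against 0.775, 0.748 and 0.71 in WT.

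**Figure D3:**
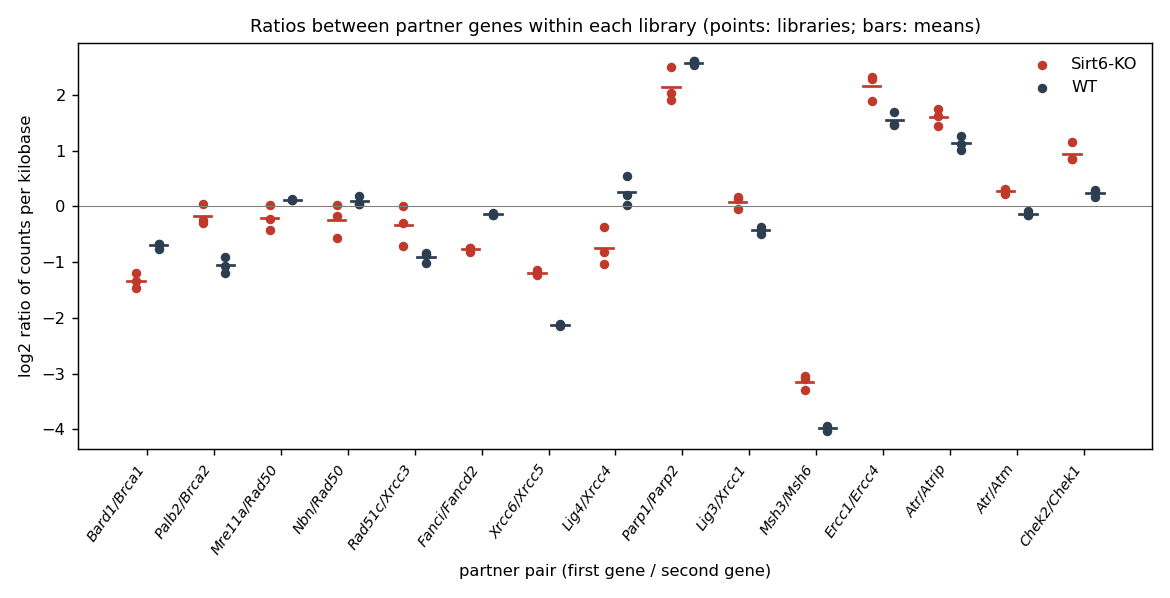
Log2 ratio of counts per kilobase between the genes of 15 partner pairs in each library, Sirt6-KO in red and WT in dark blue, with a bar at each group's mean. The groups do not overlap in any pair. They lie far apart for Xrcc6/Xrcc5 (0.433, 0.427 and 0.455 in Sirt6-KO against 0.231, 0.229 and 0.225 in WT). For Nbn/Rad50 they nearly touch (0.674, 0.888 and 1.02 in Sirt6-KO against 1.03, 1.03 and 1.14 in WT).

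The rest of the repair machinery was taken from a list of 91 other genes, of which 90 were tested. Of these, 14 rose and 22 fell, together 40.0% beside 55.7% of all genes tested, and 46 (51.1%) did not overlap beside 63.2%. Their median log2 fold change was 0.00. With total counts as the scaling, which raised the median log2 fold change of all genes by 0.126, this split turned to 26 higher and 11 lower. The same scaling gave 13 higher and 8 lower for the 52 listed genes. Without Sirt6-KO replicate 1, 22 of the other genes were called higher and 29 lower.

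The largest falls among these other genes were spread over several pathways. Slx4, the scaffold for the nucleases that cut crosslinks and joint molecules, had 26.0, 26.4 and 20.1 CPM in Sirt6-KO, against 47.5, 44.1 and 41.8 CPM in WT (log2 fold change -0.88 ± 0.12 SE, edgeR adjusted p = 0.000119). Mus81, a nuclease that docks on SLX4, went the other way, at 24.8, 22.2 and 22.9 CPM in Sirt6-KO, against 12.5, 13.3 and 13.9 CPM in WT (0.82 ± 0.10 SE, edgeR adjusted p = 6.37e-05). Ercc4, whose product cuts together with ERCC1 and also docks on SLX4, fell by 0.62 (edgeR adjusted p = 0.000528). Slx4 and Ercc4 thus fell while Mus81 rose, and Ercc1 was not called.

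The nuclease gene Apex2 fell by 0.81 (edgeR adjusted p = 0.000385), the end-joining polymerase gene Polm by 0.74 (edgeR adjusted p = 0.00388), the fork protector gene Timeless by 0.65 (edgeR adjusted p = 0.00133) and the alkylation reversal gene Alkbh3 by 0.64 (edgeR adjusted p = 0.00042). Rises were led by Mgmt, which removes alkyl groups from guanine, at 20.5, 24.4 and 28.3 CPM in Sirt6-KO, against 12.3, 13.3 and 13.4 CPM in WT. It rose 1.87-fold (log2 fold change 0.90 ± 0.13 SE, edgeR adjusted p = 0.000155). Alkbh2, another direct reversal gene of the list, rose by 0.36 (edgeR adjusted p = 0.0465).

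Ube2t, the conjugating enzyme that ubiquitinates the FANCD2 and FANCI clamp, rose by 0.71 on the log2 scale (edgeR adjusted p = 0.000548). Other rises were 0.70 for Mad2l2, a subunit of both shieldin and translesion polymerase zeta (edgeR adjusted p = 0.000192), 0.67 for Aptx, which clears failed ligations (edgeR adjusted p = 0.0013), and 0.55 for Uimc1, the ubiquitin reader of the BRCA1-A complex (edgeR adjusted p = 0.000644).

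Genes tied to the response to damage were counted as a list of 19. Besides p53 targets and GADD45 genes, it holds Trp53 itself, Mdm4, Cdc25a, Cdc25b, Cdc25c and Wee1, so not all are readouts of damage signalling. Of the 19, 9 rose and 6 fell, together 78.9% beside 55.7% of all genes, with a median log2 fold change of 0.24. Gadd45g, a stress gene of the GADD45 family, had 5.38, 5.20 and 6.86 CPM in Sirt6-KO, against 0.671, 0.293 and 0.425 CPM in WT (log2 fold change 3.61 ± 0.26 SE, edgeR adjusted p = 1.13e-06). Its WT counts were only 18, 7 and 11, so Gadd45g passed the filter on low counts only through the Sirt6-KO libraries. The size of its rise rests on these low WT counts. The death gene Bbc3 (PUMA) rose by 1.33 (edgeR adjusted p = 2e-05), the cyclin gene Ccng1 by 0.85 (edgeR adjusted p = 2.71e-05) and the death gene Pmaip1 (NOXA) by 0.77 (edgeR adjusted p = 6.1e-05).

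Trp53 itself fell, at 287, 282 and 288 CPM in Sirt6-KO, against 388, 408 and 407 CPM in WT (log2 fold change -0.49 ± 0.09 SE, edgeR adjusted p = 0.000987). Its inhibitor gene Mdm4 fell by 0.85 (edgeR adjusted p = 0.000264), its target Zmat3 by 0.92 (edgeR adjusted p = 0.000112) and the phosphatase gene Cdc25a, which the checkpoint kinases restrain, by 0.75 (edgeR adjusted p = 0.000159). The p21 gene Cdkn1a, a p53 target that arrests the cycle, rose by 0.49, at 15.4, 13.7 and 15.7 CPM in Sirt6-KO, against 11.5, 10.7 and 9.54 CPM in WT (SE 0.12, edgeR adjusted p = 0.00446). Among the other p53 targets of the list, Bax and Aen rose, Sesn2 fell, and Mdm2, Phlda3 and Gadd45a were not called.

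Many repair genes are transcribed most in the phases of replication, so proliferation genes are given beside them. Of 23, 12 fell and 1 rose, together 56.5% beside 55.7% of all genes tested. Their summed level was 6601 to 6676 CPM in Sirt6-KO and 8185 to 8408 CPM in WT. E2f2, a factor that drives S-phase genes, fell by 1.21 (edgeR adjusted p = 6e-05) and Rrm2, a subunit of ribonucleotide reductase, by 1.19 (edgeR adjusted p = 7.69e-06), while Top2a and Cdk1 had log2 fold changes of 0.08 and -0.06 and were not called. The part of these genes' levels in the changes of the repair genes was not tested.

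The spread of the Sirt6-KO libraries moved with transcript length. Between Sirt6-KO replicates 3 and 1, the 18 repair genes with the longest transcripts (5028 to 12647 bases) had a median log2 ratio of -0.35, and 14 of them were lower in replicate 3. The 17 with the shortest (1053 to 3296 bases) had a median of 0.17, with 5 lower. Between WT replicates 3 and 1 the medians were -0.08 for the longest and 0.11 for the shortest. Over the 52 genes, length ranked against these replicate ratios with a Spearman coefficient of -0.596 in Sirt6-KO and -0.622 in WT. The points share libraries, so both are descriptions.

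Length also moved, more weakly, with the knockout comparison (Spearman -0.23 over the 52). Among the 18 longest genes, which include Brca2 and Trp53bp1, 3 rose and 7 fell. Of the 17 shortest, which include Xpa and Xrcc6, 5 rose and 3 fell, and of the 17 between, 4 rose and 4 fell. Over all genes tested, 27.9% rose and 27.8% fell. Median log2 fold changes were -0.13 for the longest, 0.10 for the middle and 0.01 for the shortest, so the order was not even. A trend on length and GC content was also removed from each library, a step chosen after the data were seen. This left 12 repair genes higher and 20 lower. In the list of other repair genes it gave 14 higher and 38 lower. Over all genes it gave 4301 higher and 5664 lower, with a shift of -0.088 in their median log2 fold change.

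**Figure D4:**
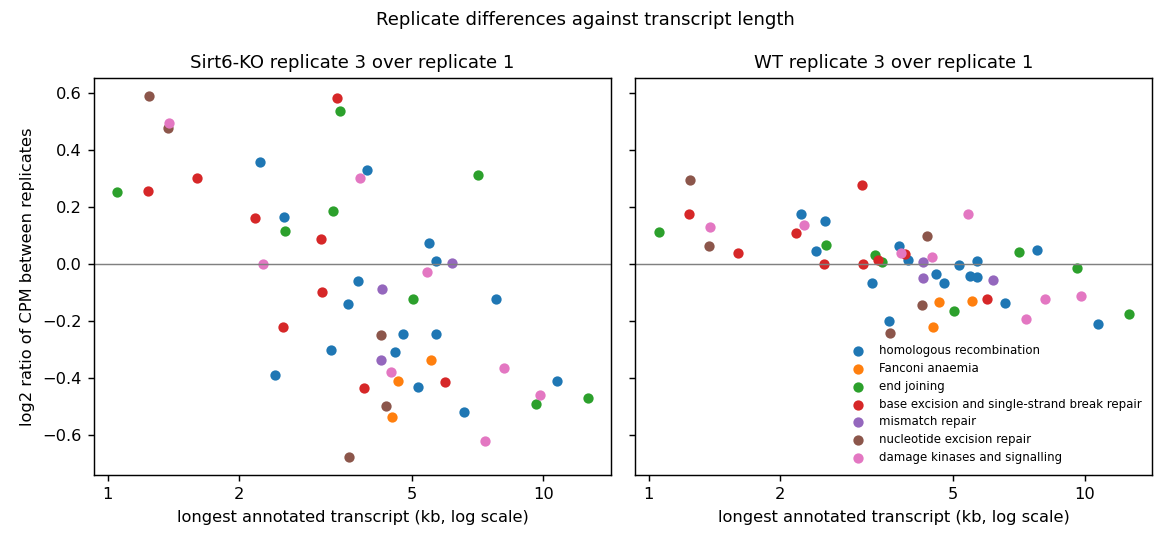
Log2 ratio of CPM between replicates 3 and 1 of Sirt6-KO (left) and of WT (right) for the 52 genes, against the longest annotated transcript on a log scale, coloured by role. In both panels short genes lie higher than long ones, with a median of 0.17 against -0.35 in Sirt6-KO and 0.11 against -0.08 in WT.

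Genes next to the repair genes were looked up in a GRCm38 annotation (GENCODE M21), by name and order only. Of the 52, 16 (30.8%) start within 1000 bases of a gene read from the other strand, beside 1287 of 19298 protein-coding genes (6.67%). The share of 30.8% was not tested, since the list was not drawn at random. The 19298 include genes too low to be tested, whereas all 52 were tested, and no share over tested genes was computed. Both genes were called in 1 of the 16 pairs, and 1 neighbour, Pinlyp beside Xrcc1, did not pass the filter on low counts. The pair was Chek2 and its divergent neighbour Hscb, a co-chaperone gene of iron-sulphur cluster assembly that rose by 0.50 (edgeR adjusted p = 0.0174). Lig4 was called and its neighbour Abhd13, whose start lies 21 bases away, was not (log2 fold change -0.21, edgeR adjusted p = 0.0646).

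In 3 further pairs the neighbour was called and the repair gene was not. Zfyve21 beside Xrcc3 rose by 0.99 (edgeR adjusted p = 2.02e-05), Osgep beside Apex1 rose by 0.59 (0.00129) and the helicase gene Mcm4 beside Prkdc fell by 0.51 (0.000777). Brca1 fell while Nbr1 beside it had a log2 fold change of 0.08 and was not called. A total of 17 of the 52 have exons that overlap another gene in the table, nearly always on the other strand, as Fanci does with Polg, Lig3 with Rffl and Xrcc6 with Desi1. The labels do not say whether the counting used strand, so reads of such partners may not have been told apart and their values are less certain.

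The authors' deposited table of the same comparison listed all 52 genes, with 11 called higher and 14 lower at an adjusted p under 0.05. Of these calls, 24 had the same sign as here, 1 stood only in the authors' deposited table (Mdc1, lower, adjusted p = 0.0486), 2 stood only here (Nbn and Nhej1) and 0 were opposite.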

How the data were processed

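Total RNA of mouse embryonic stem cells was sequenced, and 6 of 9 samples (3 Sirt6-KO, 3 WT) were matched to table columns by name. The 3 glucose-deprived samples were not analysed here. The authors deposited raw counts, 1 row for each gene symbol. The submitters' processing notes name the build mm9 and the tools DESeq2, HTSeq 0.6.1 and TopHat2 2.0.10, without saying what each did. Neither strand setting nor annotation is stated there. Per the file headers, the authors' own comparison comes with a mean signal (baseMean), the log2 fold change with its error, the test score, and the p-value before and after adjustment.

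Counts were tested with edgeR 4.0.16 in R 4.3.3 (glmQLFit, glmQLFTest, TMM, filterByExpr, two-sided). P-values were adjusted by Benjamini-Hochberg over 14988 genes, with a threshold of 0.05. The SE was derived from the fold change and the F statistic (absolute log2 fold change over root F). Replicates differed by more than sampling noise (chi-square over its degrees of freedom was 3.73 or more). The fits were tested on simulated data with known changes.

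Members and lists were chosen with earlier results of these data known, so no p is given over a list. Values per library are printed for up to 4 called genes per role with the largest change and for the most abundant gene. Up to 6 (other repair) or 4 (damage response) called genes each way are named, with Trp53 and Cdkn1a, and any other gene was named after its values were seen. The proliferation and marker lists are given by counts and sums.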

Additional observations from a re-analysis of the deposited data

How the results depend on the processing

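Of the 26 calls, 17 (9 higher, 8 lower) were kept in all 13 alternatives: DESeq2 size factors, total counts, no filter, a mean of at least 1 CPM as filter, DESeq2 1.42.0 as the test, the replicate block, each of the 6 libraries left out, and the length and GC trend. The other 9, each lost in at least 1, are Brca1, Rad51c, Mre11a, Nbn, Xrcc5, Nhej1, Lig3, Ung and Msh6. Their adjusted p reached at most 0.284 (Nbn, total counts). Of the 26 uncalled genes, 11 were called in at least 1 alternative. No called gene reversed.

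With total counts as the scaling, 13 repair genes rose and 8 fell, and Brca1, Mre11a, Nbn, Xrcc5, Ung and Msh6 lost their calls. Other repair genes then split into 26 higher and 11 lower, and all genes into 5114 and 3101. Ogg1 (0.0966) and Pms2 (0.0608) changed sign. With the length and GC trend removed, 38 other repair genes were lower and 10 uncalled repair genes changed sign: Palb2 (-0.0167), Rad51ap1 (-0.22, adjusted p = 0.0152), Rad52 (-0.0782), Xrcc4 (-0.24), Prkdc (0.00616), Apex1 (-0.11), Pms2 (0.0153), Ercc1 (-0.0980), Chek1 (-0.16) and H2afx (-0.0350). Xrcc4 also changed sign with no filter (-0.0032), and Ogg1 with the 1 CPM filter (0.0011). The cause was not tested.

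Same-numbered libraries of the groups correlated in their deviations at 0.208, -0.025 and 0.201, so the numbers were not taken to pair them. Sirt6-KO replicate 2 correlated best with another number. The replicate block gave 12 repair genes higher and 16 lower, with Xrcc2 and Mdc1 added, and Xrcc4 (-0.0045) and Ercc1 (-0.0015) changed sign.

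Leaving out 1 library at a time gave 3580 to 4961 genes higher and 3352 to 4915 lower over all genes. It gave 9 to 14 higher and 10 to 18 lower among the 52, and 10 to 22 higher and 15 to 29 lower among other repair genes. Uncalled genes whose log2 fold change took both signs were Rad51ap1 (-0.109 to 0.0993), Apex1 (-0.108 to 0.0737), H2afx (-0.143 to 0.139), Fancd2 (-0.0674 to 0.0689), Xrcc4 (-0.122 to 0.165), Ercc1 (-0.147 to 0.121), Rnf8 (-0.0531 to 0.0858), Rad50 (-0.024 to 0.158), Ogg1 (-0.152 to 0.0323), Ercc2 (-0.109 to 0.209), Dclre1c (-0.0758 to 0.114) and Chek1 (-0.0118 to 0.159). Depth did not keep any of the 52 genes out of the test, the lowest count being 134, and the common biological coefficient of variation was 0.115.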
